A study of Mus musculus with 5 samples.

Results

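The genes described here encode the subunits and helper factors of the proteasome, measured by SLAMseq in cardiac fibroblasts (CF). Members were all gene names in the deposited tables that begin with Psma, Psmb, Psmc, Psmd, Psme, Psmf or Psmg followed by a digit. This rule gave 51 of 20365 gene names. Of these, 49 are proteasome subunits or factors, while Psmc3ip, a meiotic recombination factor, and Psme3ip1, an interaction partner of Psme3, carry a matching name without being subunits.

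CF were isolated from healthy hearts of adult male C57Bl/6J wildtype mice and grown in culture. In 3 labeled libraries the cells had received 0.1 mM 4-thiouridine (S4U) for 12 h, and in 2 unlabeled libraries they had been kept for 12 h in medium lacking it. No group carried a genetic change or an injury. S4U enters RNA that is made during the incubation and is read as C in place of T after alkylation, so that the T>C conversion rate, the share of covered T positions read as C, rises with the newly made fraction of a transcript. Reads came from the 3′ ends of transcripts and were counted on 3′ UTR intervals.

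The proteasome degrades proteins that are marked with ubiquitin and supplies peptides for antigen presentation. Its 20S core is a barrel of outer alpha rings and inner beta rings, and the beta subunits Psmb6, Psmb7 and Psmb5 carry the caspase-like, trypsin-like and chymotrypsin-like sites. Interferon-induced cells replace them with Psmb9, Psmb10 and Psmb8, which form the immunoproteasome. The 19S regulatory particle caps the core: ATPases of the base (Psmc genes) unfold substrates, and the lid holds the deubiquitinase Psmd14. Dedicated chaperones assemble both parts, and other caps (Psme genes) open the core without ATPases.

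Depth differed between libraries and limits all values below. On 1 interval per gene, the labeled libraries held 1576048 (replicate 1), 1194971 (replicate 2) and 506045 (replicate 3) reads. The unlabeled libraries held 1843033 (replicate 1) and 996143 (replicate 2). The members took between 0.419% and 0.5004% of them. Levels are given as CPM relative to these counted reads, the reads of a gene scaled to the same total in every library, and were not divided by length, since each transcript end is read once. The pooled T>C rate of all intervals was 3.53%, 3.58% and 3.56% in the labeled libraries and 0.111% and 0.0652% in the unlabeled libraries. The 10 fibroblast markers summed to between 33895 and 45010 CPM in each library. The 7 cardiomyocyte markers summed to between 1.27 and 8.03, with Myl2 and Ryr2 at 0 throughout. Endothelial markers (6 of 6 read) summed to between 115 and 238, and leukocyte markers (6 of 8 read, Cd3e and Cd79a at 0) to between 54.6 and 104. Smooth muscle and pericyte markers summed to between 7.53 and 15.8, and epicardial markers (Msln at 0) to between 1.00 and 5.93. The study's methods describe the replicates as separate CF preparations, while the labels do not tie a library to a preparation or an animal, and p-values measure the spread between these libraries.

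One split of the libraries has to be known before the results. Labeled replicate 1 and unlabeled replicate 1 stood apart from the other 3 libraries in the levels of many members. Both replicate 1 libraries were above all others for 19 of 48 members read in every library, beside 27.5% of all genes. They were below all others for 13 members, beside 22.3% of all genes. Psmc5, an ATPase of the base, had 33.0 and 23.3 CPM in labeled and unlabeled replicate 1, but 156, 140 and 93.4 in labeled replicates 2 and 3 and unlabeled replicate 2. Psmb10, the trypsin-like immunoproteasome subunit, ran the other way with 103 and 163 against 27.6, 21.7 and 39.2. Both replicate 1 libraries were above the rest for all 4 core chaperones, as with Psmg4 at 53.9 and 45.03 against 20.1, 9.88 and 12.05. They were below the rest for 4 of 6 base ATPases (Psmc1, Psmc2, Psmc4 and Psmc5), while Psmc6 lay above it. Of 5 marker lists of other cells, the leukocyte and cardiomyocyte sums differed along the same split, and the endothelial, smooth muscle and epicardial sums overlapped. The leukocyte sums were 54.6 and 59.7 in the replicate 1 libraries. They were 99.6, 77.1 and 104 in labeled replicates 2 and 3 and unlabeled replicate 2. Single leukocyte markers were mixed. In the same order of libraries, Lyz2 (2.54 and 3.26 against 27.6, 17.8 and 30.1), Csf1r and C1qa followed the split. Cd68 (16.5 and 20.1 against 17.6, 11.9 and 11.04), Adgre1 and Ptprc did not. The cardiomyocyte sums were 1.27 and 2.17 against 7.53, 5.93 and 8.03. They rest on few reads, as with Tnnt2 at 1 and 3 reads against 6, 2 and 6. The part of these cells in the split was not tested.

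**Figure D1:**
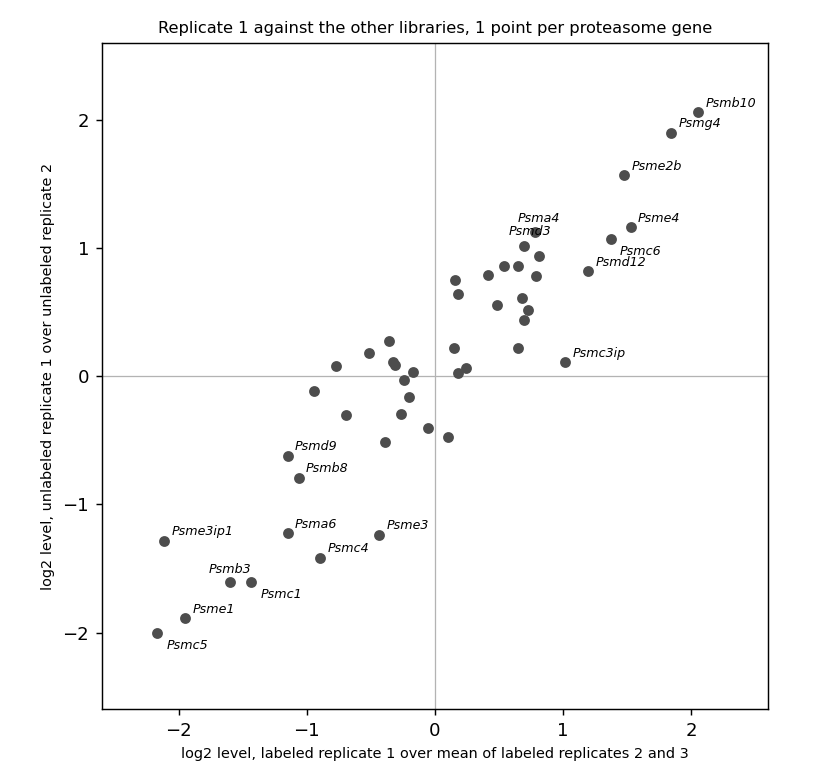
Levels in the replicate 1 libraries against the others, as log2 ratios, for 48 proteasome genes: labeled replicate 1 over the mean of labeled replicates 2 and 3 (horizontal) and unlabeled replicate 1 over unlabeled replicate 2 (vertical). The points run along the diagonal from Psmc5 (-2.17 and -2.00) to Psmb10 (2.06 and 2.06), and 41 of 48 have the same sign on both axes, as do 8678 of 11189 genes.

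First, it was asked whether proteasome transcripts were made during labeling. The T>C rate rose in 46 of 48 members tested (beta-binomial test over all intervals, adjusted p below 0.05), beside 94.5% of all intervals tested, so that this count is near the background. Psma8, Psmb11 and Psme2 lacked covered T positions in at least 1 library and were not tested. The other two without a call were Psmb9 and Psmc3ip, with only 16 and 20 covered T positions in labeled replicate 3. The median T>C rate of the 48 members was 3.93% ± 0.07 (SD, n = 3), while that of 11189 genes read in every library was 3.75% ± 0.05. These sets differ in depth. With 1000 or more covered T positions in each labeled library, the medians were 3.87% ± 0.17 for 15 members and 3.85% ± 0.06 for 2123 genes. The 31 constitutive subunits of the core and the regulatory particle had a median of 3.88% ± 0.07, with 4.03% ± 0.24 for the 14 core subunits and 3.82% ± 0.12 for the 17 regulatory subunits. The median of the 12 measured chaperones, activators and Psmf1 was 4.50% ± 0.34. None of these 12 had 1000 or more covered T positions in each labeled library. With conversions and covered T positions pooled over genes, their rate was 4.26% ± 0.30. Pooled rates were 3.93% ± 0.04 for the 31 constitutive subunits and 4.05% ± 0.18 for the 14 core subunits.

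**Figure D2:**
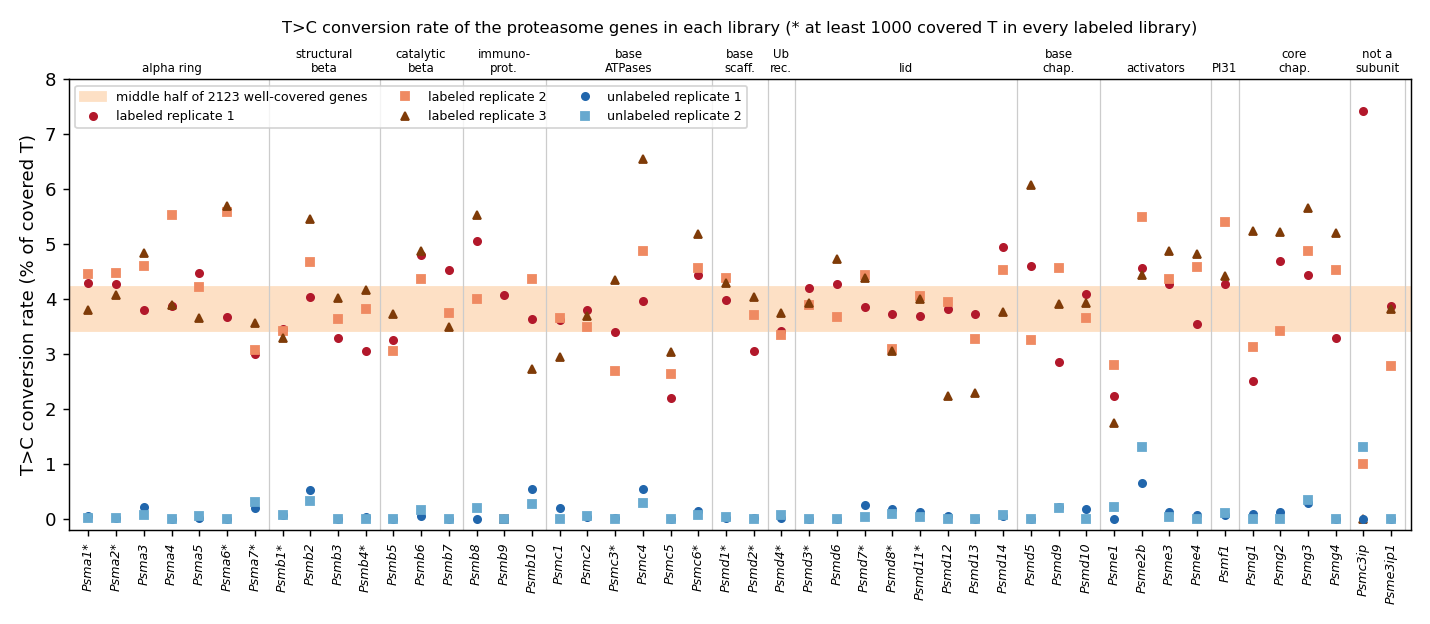
T>C conversion rate, in percent of covered T positions, of 48 proteasome genes in each of the 5 libraries (red, orange and brown labeled, blue unlabeled), grouped by subcomplex. The band is the interquartile range (3.43% to 4.23%) of 2123 genes that had 1000 or more covered T positions in each labeled library. Labeled and unlabeled points overlap for Psmb9 and Psmc3ip. A raised rate was called for 94.5% of all intervals tested, so that it does not set the other genes shown here apart.

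In the alpha ring, which forms the gate of the core, rates ran from 3.21% to 4.98%. Psma6 had 3.67%, 5.58% and 5.70% in labeled replicates 1, 2 and 3 and 0 conversions in both unlabeled libraries, where 1458 and 2178 covered T positions allow up to 0.206% and 0.138%. Its mean of 4.98% ± 1.14 was the highest of the 15 members that had 1000 or more covered T positions in each labeled library, with replicate 1 well under the other two. Psma2 had 4.28%, 4.48% and 4.07%, and the 3 libraries lay close together (mean 4.28% ± 0.21). Psma7 was lowest in the ring and among the 15, with 3.002%, 3.07% and 3.56% (mean 3.21% ± 0.30), and 0.203% and 0.311% without S4U.

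Among the structural beta subunits, Psmb1 had 3.46%, 3.42% and 3.30%, the third lowest mean of the well-covered members (3.39% ± 0.09). Psmb2 had 4.03%, 4.68% and 5.47%, with 0.531% and 0.334% in the unlabeled libraries. The unlabeled rate of Psmb2 was over 0.2% in both libraries, which also held for Psma7, Psmb10, Psmc4, Psme2b and Psmg3 and for 4.73% of all genes. For most members the unlabeled rate was far lower, with medians of 0.0446% and 0.0271% in unlabeled replicates 1 and 2 and no conversion in either library for 13 of 48.

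The constitutive catalytic subunits differed among themselves. Psmb6, the caspase-like subunit, had 4.81%, 4.37% and 4.87% (mean 4.68% ± 0.27). Psmb5, the chymotrypsin-like subunit and main target of proteasome inhibitors, had 3.25%, 3.06% and 3.74% (mean 3.35% ± 0.35), so that Psmb6 lay above Psmb5 in each labeled library. Psmb7, the trypsin-like subunit, lay between them in the mean with 4.54%, 3.74% and 3.50% (3.92% ± 0.54). These comparisons were picked after the values were seen and were not tested.

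Immunoproteasome subunits were read at low depth. Psmb8, the inducible chymotrypsin-like subunit, had 5.06%, 4.00% and 5.53% from 237, 400 and 199 covered T positions, with exact 95% binomial intervals from 2.64% to 8.68%, 2.30% to 6.41% and 2.79% to 9.68%. Psmb10 had 3.64%, 4.36% and 2.73% from 1482, 298 and 110 covered T positions. Psmb9, the inducible counterpart of Psmb6, had 2 conversions at 49 covered T positions in labeled replicate 1. It had none at 82 and 16 positions in labeled replicates 2 and 3, which allows up to 3.66% and 18.8%. All such intervals and limits cover counting error only. The mean rate of the 3 immunoproteasome subunits was 3.27% ± 0.86 against 3.99% ± 0.24 for the 3 constitutive ones. The difference of -0.72 percentage points (SD 0.70; 0.06, -0.94 and -1.28 in labeled replicates 1, 2 and 3) is a description: an exact paired permutation test (two-sided, p = 0.5) cannot go below 0.25 with 3 libraries and so cannot separate the sets. When conversions and covered T positions were pooled over the subunits, a choice made after seeing Psmb9, the difference was -0.01 percentage points.

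In the base, the ATPases spanned the widest range of any subcomplex of the constitutive particle, from 2.62% to 5.13%. Psmc5 had the lowest constitutive rate with 2.20%, 2.63% and 3.03%, from 545, 2053 and 792 covered T positions. Psmc4 had the highest with 3.97%, 4.88% and 6.55%, although 0.539% and 0.289% were read without S4U. Psmc6 had 4.44%, 4.56% and 5.19% at 10396, 3378 and 1444 covered T positions (mean 4.73% ± 0.40). The scaffold subunits Psmd1 and Psmd2 had 4.23% ± 0.21 and 3.60% ± 0.49, and the ubiquitin receptor Psmd4 had 3.50% ± 0.21. In the lid, 8 subunits had means from 3.10% (Psmd13) to 4.41% (Psmd14, the deubiquitinase). Psmd8 had 3.72%, 3.09% and 3.06%, the second lowest mean of the well-covered members (3.29% ± 0.37).

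Among the helper factors, the activator Psme1 (PA28 alpha) had 2.25%, 2.80% and 1.74%, from 4, 24 and 7 conversions. Its mean of 2.26% ± 0.53 was the second lowest of the 48 members after Psmb9. Psme3 (PA28 gamma) and Psme4 (PA200) had 4.51% ± 0.33 and 4.32% ± 0.68, and the regulator Psmf1 (PI31) had 4.70% ± 0.62. The base chaperones Psmd5, Psmd9 and Psmd10 ran from 3.77% to 4.65%, and the core chaperones Psmg1 to Psmg4 from 3.63% to 4.99%, the top value being Psmg3 with 4.44%, 4.87% and 5.66%.

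Psme2 (PA28 beta), the partner of Psme1, could not be measured separately. Its interval on chromosome 14 (chr14:55824897-55824941, minus strand, in the 3′ UTR) had 0 reads in 4 libraries and 1 read in unlabeled replicate 1. All 45 bases of this interval occur without a mismatch inside the 54 base interval of Psme2b on chromosome 11 (chr11:48836172-48836225, minus strand), and the longest transcripts of both genes share 787 of 792 aligned bases. Psme2b had 138, 35, 17, 110 and 20 reads in labeled replicates 1, 2 and 3 and unlabeled replicates 1 and 2. Its rate was 4.56%, 5.49% and 4.44% with S4U and 0.656% and 1.31% without, the highest unlabeled rates of a member apart from Psmc3ip in unlabeled replicate 2. Reads of the 2 copies cannot be told apart here.

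Next, the rates of well-covered members were set against the median gene. Of these 15 well-covered members, 1 lay above the median gene (limma on log2 odds, adjusted p below 0.05 over 2123 genes), beside 8.38% of all genes, and 1 lay below it, beside 20.1%. Psmc6 was higher by 0.31 ± 0.07 (SE) on the log2 odds scale (limma, adjusted p = 0.0263). Psma7 was lower by -0.27 ± 0.08 (limma, adjusted p = 0.0438). Psma6 had the largest difference, 0.37 ± 0.13, and did not pass (limma, adjusted p = 0.0855). Both calls stayed with the unlabeled rate subtracted and with the share of reads that hold a conversion. Against the library-wide pooled rate Psmc6 stayed, Psma7 was -0.14 and lost its call (limma, adjusted p = 0.174), and Psma1, Psma2, Psma6, Psmd1 and Psmd7 were called above. With a minimum of 200 covered T positions, 0 of 40 members passed in limma, beside 17 genes above and 378 below of 6735. At an unadjusted limma p below 0.05, 4 members lay above and 2 below, beside 504 and 936 genes. The differences were then 0.30 for Psmc6 and -0.27 for Psma7. Without labeled replicate 1 only Psma6 was called, above the median (all genes: 20 above and 284 below of 2165). Without labeled replicate 2 only Psmc6 was called, above it (all genes: 80 above and 395 below of 2127). Without labeled replicate 3, limma called 0 of 28 members, beside 15 genes above and 346 below of 4085 (unadjusted 3 members above and 3 below, beside 324 and 697 genes). The 15 means spread with an SD of 0.527 percentage points over genes, beside a median SD of 0.324 between the libraries of one gene, while the 2123 genes spread with 0.891. Of the 15, 8 lay within the interquartile range of all 2123, 4 above and 3 below. The order of the 15 rates varied between labeled libraries. Spearman correlations were 0.696 (replicates 1 and 2), 0.204 (1 and 3) and 0.596 (2 and 3). For the 2123 genes they were 0.729, 0.660 and 0.684.

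The constitutive subunits had the highest median level, and the helper factors and inducible subunits were lower. The median level of the 48 members was 78.9 ± 7.93 CPM (SD, n = 3 labeled libraries), against 30.4 ± 0.67 for all genes read in every library. It was 118 ± 8.47 for the 31 constitutive subunits, 42.5 ± 7.28 for the 12 measured chaperones, activators and Psmf1, and 21.3 ± 6.52 for the immunoproteasome. Psmd8, a lid subunit, was highest with 280, 326 and 389 CPM in labeled replicates 1, 2 and 3 and 298 and 246 in the unlabeled libraries. Psmb4 and Psmb1 followed with means of 238 ± 82.7 and 227 ± 40.1, which do not differ from each other beyond their spread. The lowest levels of the 15 well-covered members were those of Psma6 (95.4 ± 37.2), Psmd1 (121 ± 22.4) and Psmd7 (130 ± 26.3). The thymus subunit Psmb11 had no read in any library and the testis subunit Psma8 at most 1.

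**Figure D3:**
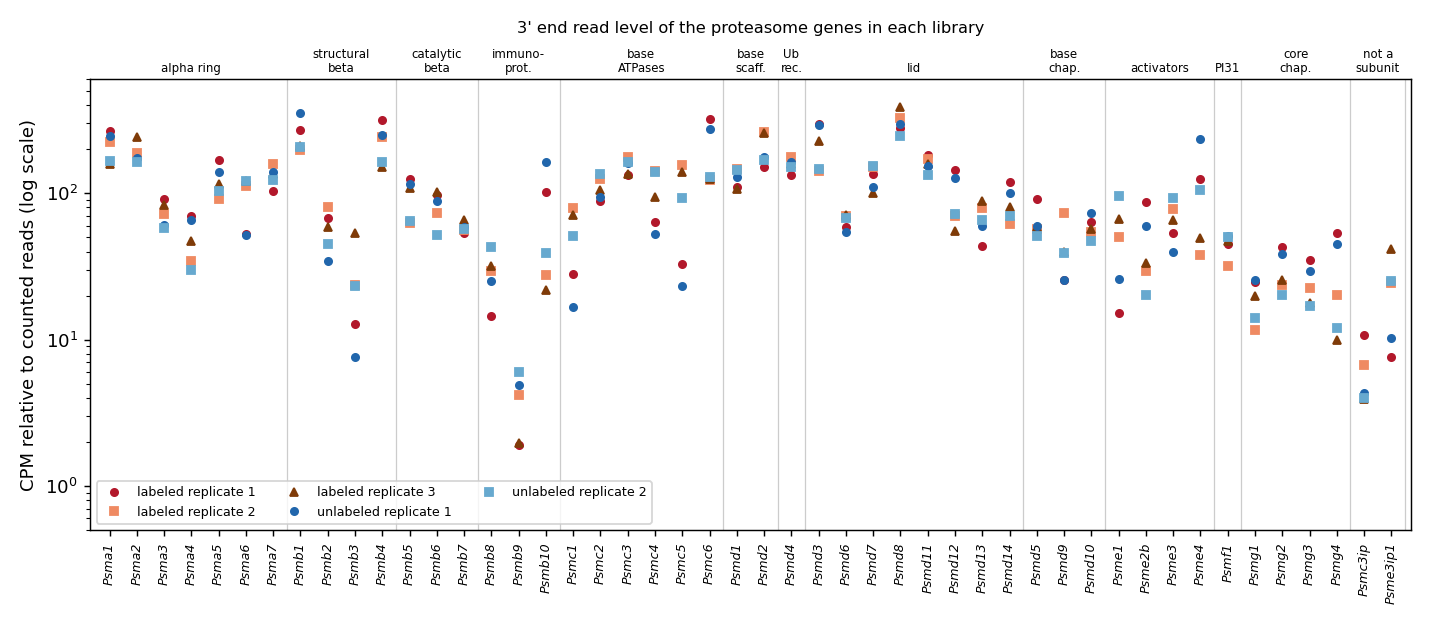
Level of 48 proteasome genes in each library, in CPM relative to counted reads on a log scale, grouped by subcomplex. Psmd8 lies highest and Psmb9 lowest, and for Psmc5, Psmb10, Psme1 and Psmc1 the circles of the replicate 1 libraries lie apart from the other symbols.

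The reads of the 31 constitutive subunits were split by subcomplex. The alpha ring took 22.1%, 21.6% and 22.5% in labeled replicates 1, 2 and 3 and 21.5% and 21.8% in the unlabeled libraries, a range under 1 percentage point. The beta ring took 22.5%, 18.0% and 18.7%, and 22.3% and 17.4%. The base took 25.3%, 34.1% and 29.7%, and 26.8% and 33.6%. Thus both replicate 1 libraries were higher in the beta ring and lower in the base than the other 3 libraries. The lid took 30.1%, 26.3% and 29.1%, and 29.5% and 27.2%, so that it exceeded the base in both replicate 1 libraries and lay below it in the others.

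Of the inducible catalytic subunits, Psmb8 and Psmb9 lay below the 3 constitutive ones in every library, and Psmb10 did so only outside the replicate 1 libraries. Psmb5 had 124.996, 62.8 and 109 CPM with S4U and 117 and 64.2 without, and Psmb6 had 97.7, 72.8 and 103, and 87.9 and 52.2. Psmb7 was the most even of the 3 with 53.9, 56.1 and 65.2, and 58.6 and 57.2. Among the inducible subunits, Psmb8 had 14.6, 29.3 and 31.6 CPM with S4U and 24.96 and 43.2 without. Psmb9 had 1.90, 4.18 and 1.98, and 4.88 and 6.02, from at most 9 reads. In sum, the 3 immunoproteasome subunits reached 43.1%, 31.9% and 20.0% of the 3 constitutive ones with S4U (replicates 1, 2 and 3), and 73.4% and 50.9% without it. Psmb10 made up most of the sum in both replicate 1 libraries, where its 163 CPM without S4U exceeded all 3 constitutive subunits and its 103 CPM with S4U exceeded Psmb6 and Psmb7. The study's methods describe a magnetic depletion of CD31+ and CD45+ cells, that is endothelial and immune cells. The leukocyte and endothelial markers given above were read in the same libraries, and their part in these levels was not tested. In such bulk libraries, fewer cells that express a gene and less RNA per cell cannot be told apart.

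S4U itself could alter transcript levels, so labeled and unlabeled reads were compared. No member was called (0 of 46 tested, edgeR's quasi-likelihood test, adjusted p below 0.05), and neither was any of 9807 genes (0%). At an unadjusted p below 0.05, 1 member (Psmb2) passed, beside 5.97% of all genes (279 higher and 306 lower), and DESeq2 called 0 members (Psmb2 and Psme4 unadjusted) and 18 genes. The call changed with the replicate number as a block, although the labels do not say that a number marks a shared preparation. In that fit edgeR called 4 members higher (Psmb2, Psmb4, Psmc1 and Psmc5) and 2 lower (Psme1 and Psme4), beside 528 and 618 of 9807 genes. All other values here are from fits without the block. The members not tested for low counts were Psma8, Psmb9, Psmb11, Psmc3ip and Psme2. The median log2 fold change of the 46 members was 0.14, with 11 below 0, beside 0.02 and 48.3% below 0 for all genes. The median was 0.04 with 20 below 0 without labeled replicate 1, 0.10 with 18 of 47 below 0 without unlabeled replicate 2, 0.25 with 14 below 0 without labeled replicate 2 and 0.32 with 12 of 47 below 0 without unlabeled replicate 1.

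Psmb2, a structural beta subunit, had 67.3, 80.3 and 59.3 CPM with S4U and 34.2 and 45.2 without. Every labeled library lay above both unlabeled ones, as for Psma3 and Psmd11, together 3 of 48 members beside 8.37% of all genes. The log2 fold change of Psmb2 was 0.88 ± 0.31 (SE; edgeR, unadjusted p = 0.0248, adjusted p = 0.741). Every labeled library lay below both unlabeled ones for Psmf1 and Psmb9, 2 of 48 members beside 13% of all genes.

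The largest positive values belonged to Psmb3 (0.99 ± 0.77), Psmc5 (0.98 ± 0.81) and Psmc1 (0.89 ± 0.64), and the smallest adjusted p of the 3 was 0.996 in edgeR. For all 3, the groups overlapped and the replicate 1 libraries were lowest, as with Psmb3 at 12.7, 23.4 and 53.4 against 7.60 and 23.1. The largest negative values belonged to Psme4 (-1.17 ± 0.55), Psmb10 (-0.87 ± 0.75) and Psme1 (-0.44 ± 0.75). Without labeled replicate 1 they were -1.90, -1.92 and 0.03, and without unlabeled replicate 1 they were -0.53, 0.44 and -1.15. Psme4, the ATP-independent activator of the nucleus, had 126, 37.7 and 49.4 with S4U and 237 and 105 without, so that labeled replicate 1 lay above unlabeled replicate 2 (edgeR, adjusted p = 0.883). Psme1 had 15.2, 50.2 and 67.2 with S4U and 26.04 and 96.4 without, and the groups overlapped. With the replicate number as a block, Psmc1 and Psmc5 were called higher and Psme1 and Psme4 lower, while Psmb3 and Psmb10 were not called.

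**Figure D4:**
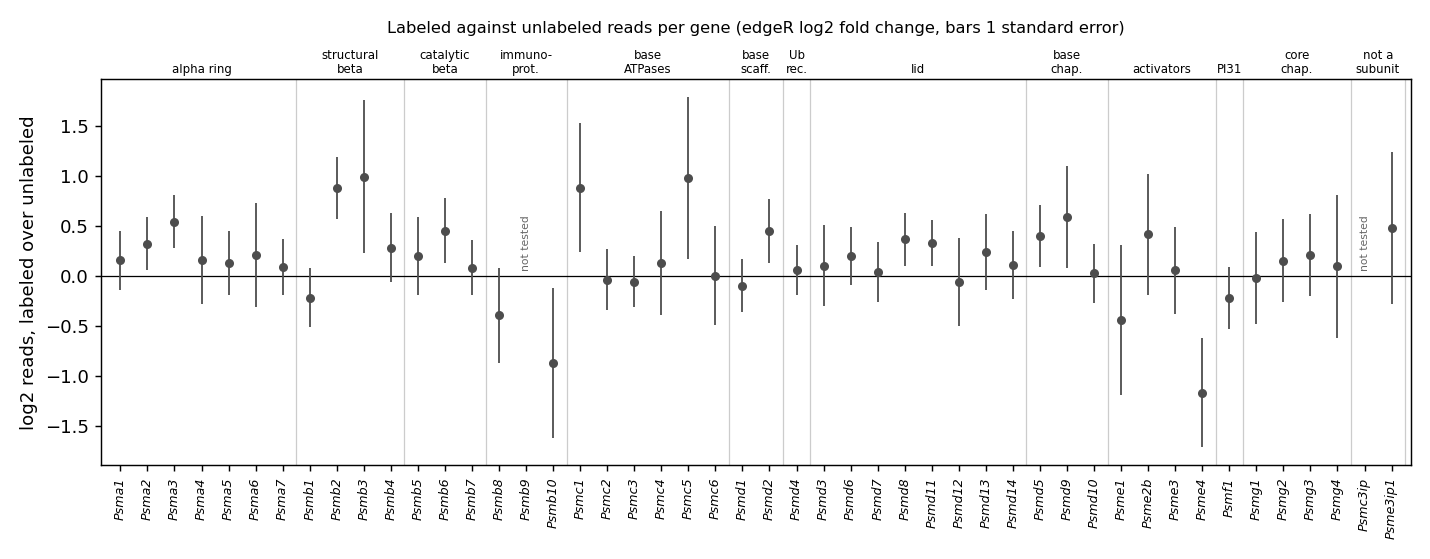
Difference in reads between labeled and unlabeled libraries, as edgeR's log2 fold change with 1 standard error, for 46 proteasome genes grouped by subcomplex (2 of the 48 read in every library were not tested). Psmb3, Psmc5, Psmc1 and Psmb2 lie highest and Psme4 lowest, with no value passing the adjusted threshold in this fit without a block.

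By subcomplex, the alpha ring had positive values for all 7 subunits, with a median of 0.16 and a range from 0.09 to 0.54. This count was 6 with the replicate number as a block, without labeled replicate 2 or without unlabeled replicate 1. It was 4 without labeled replicate 1 or unlabeled replicate 2, when Psma1, Psma4 and Psma5 turned negative. The lid had 7 of 8 positive (median 0.16) and the constitutive catalytic subunits 3 of 3 (median 0.20), but without labeled replicate 1 or unlabeled replicate 2 these counts were 5 of 8 and 2 of 3. The base ATPases had 4 of 6 positive (median 0.07; 3 of 6 with DESeq2's size factors, where Psmc6 turned negative), the activators 2 of 4 (median -0.19), and both tested immunoproteasome subunits, Psmb8 and Psmb10, were negative (-0.39 ± 0.48 and -0.87 ± 0.75). Psmb8 turned to 0.10 without unlabeled replicate 2, and Psmb10 to 0.44 without unlabeled replicate 1. The structural beta subunits had 3 of 4 positive (median 0.58). The base chaperones had 3 of 3 positive (median 0.40), but Psmd10 was -0.03 without labeled replicate 1. None of these values passed the test in the fit without a block.

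Other genes of the pathway were read from the same fits. Of 31 listed genes for assembly, ubiquitin supply, substrate delivery and transcriptional control, 29 could be tested, 0 were called by edgeR and 0 passed at an unadjusted p below 0.05. With the replicate number as a block, 0 were called higher and 1 lower. Paaf1 was not found in the tables. Their median log2 fold change was 0.06, and the lowest value was -0.99 (Ecpas, which binds and restrains the 26S particle). Of the 16 that were covered as well as these members, the median T>C rate was 4.07%. The highest was 4.97% in Txnl1, a thioredoxin bound to the 19S particle. Pomp, the maturation factor of the core, had 453, 469 and 429 CPM with S4U and a rate of 4.09% ± 0.14. The transcription factors Nfe2l1 and Nfe2l2, known to drive proteasome genes, had rates of 4.51% ± 0.81 and 4.46% ± 0.12.

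Both of these factors bind antioxidant response elements, and promoters of the members were searched for the core letters TGACNNNGC on both strands, the only motif searched. RefSeq promoter windows of build GRCm38.p6 (250 bases before to 50 after the start) matched 43 of 51 members, and 6 of these 43 held the letters (14.0%), as did 14.0% of 27025 genes with a window. The members were Psmb5, Psmb6, Psmc6, Psmd9, Psmd12 and Psme4. The letters began 47 bases before the start in Psmb5, 31 in Psmd9, 227 in Psmc6 and 247 in Psmd12. In Psmb6 they began 9 bases before the start and ended directly before it. In Psme4 they began 7 bases before the start and crossed it. Matches are printed in capitals with flanking bases, so that they can be seen in their setting. The stretches that lie wholly upstream, flanks included, are shown 5′ to 3′ on the strand of the gene. By exact match of the whole window to GRCm39 they are at chr14:54855481-54855509 (Psmb5, minus strand), chr5:123366212-123366240 (Psmd9, plus), chr14:45567044-45567072 (Psmc6, plus) and chr11:107370104-107370125 (Psmd12, plus). In the last pair the letters lie on the opposite strand.
Psmb5: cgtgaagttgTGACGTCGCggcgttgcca
Psmd9: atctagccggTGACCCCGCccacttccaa
Psmc6: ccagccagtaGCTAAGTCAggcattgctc
Psmd12: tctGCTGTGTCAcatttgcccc

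The intervals behind these values overlapped the last exon of an annotated transcript for 51 of 51 members, and lay wholly within an annotated UTR for 46. Those of Psma6, Psmb10, Psmc3ip, Psme2b and Psme4 did not lie wholly within an annotated exon of the gene. Lengths ran from 45 bases (Psme2) to 3321 bases, and T made up between 19.7% and 50.8% of them. Psmd8 was read on chromosome 7 (chr7:28873612-28874034, minus strand), Psmc6 on chromosome 14 (chr14:45586159-45587138, plus), Psma7 on chromosome 2 (chr2:179678160-179678273, minus) and Psmb5 on chromosome 14 (chr14:54851577-54851648, minus), all in the 3′ UTR and in GRCm39. Psmb10 was read on chromosome 8 (chr8:106662360-106662425, minus) on an interval of 66 bases with 13 T positions that reaches beyond the annotated UTR. An exon of a gene on the other strand overlapped the interval of 6 members, Psmb7, Psmc3ip, Psmd4, Psmd13, Psme1 and Psmf1. Whether the counting used strand is not given in the sources used here, so reads of these 6 and of their antisense partners may not be separable.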

How the data were processed

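Total RNA of CF was alkylated and sequenced from transcript 3′ ends (QuantSeq 3′ FWD). Per the submitters' processing notes, the tools included bcl2fastq, FastQC, MultiQC, umi-tools and slamdunk 0.4.3, with build mm39. The authors deposited, for each library and 3′ UTR interval, read counts, T>C read counts, covered and converted T counts, a conversion rate (a fraction from 0 to 1) and CPM. No sample was pooled in these tables.

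Repeated rows were dropped (97442 rows held 40428 distinct intervals), and 1 interval per gene was kept, the one with the highest mean deposited CPM in labeled libraries. The members and lists were chosen with earlier results of these data known. Every member was eligible to be named, and other genes only from the pathway and marker lists. Levels were CPM relative to the reads counted on the kept intervals, since the totals behind the deposited CPM exceeded the counted reads. Conversion was tested by a beta-binomial likelihood-ratio test over 19240 intervals in which each library covered some T, reads by edgeR 4.0.16 (TMM, filterByExpr, quasi-likelihood) over 9807 genes, and rates against each library's median gene by limma 3.58.1 (log2 odds, pseudocount 0.5), all two-sided with Benjamini-Hochberg adjustment at 0.05. These tests were tested on simulated data. A limit for 0 conversions is 3 conversions over the covered T positions. Alternatives were DESeq2 1.42.0, other size factors and count filters (including at least 10 reads), summed intervals, minimums of 200 and 5000 covered T positions, background subtraction, the share of reads with a conversion, the replicate number as a block and leaving out each library. Intervals were compared with GENCODE vM39 on GRCm39. Work was done in R 4.3.3 and Python 3.11.15, with matplotlib 3.10.9 for plots, pandas 2.3.3 for tables, numba 0.67.0 and numpy 2.4.6 for the beta-binomial fit and scipy 1.17.1 for exact intervals.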

Additional observations from a re-analysis of the deposited data

How the results depend on the processing

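Depth limits these results, since only 15 of 48 members had 1000 or more covered T positions in each labeled library. With that minimum in every library, 15 of 15 members had a raised T>C rate, beside 99.9% of all intervals, and 46 to 47 of 48 did when a library was left out, beside 87.3% to 90.9%. The count of members off the median gene was 0 of 40 with at least 200 covered T positions, beside 17 genes above and 378 below of 6735. It was 7 (3 above and 4 below, beside 546 and 628 of 2123 genes) with the share of reads holding a conversion. Against the library-wide pooled rate it was 6 (6 above and 0 below, beside 631 and 357 genes), and it was 0 to 1 when a labeled library was left out. No member reached 5000 covered T positions in every labeled library, so that this minimum gave no value. The median T>C rate of the members was 3.85% with the unlabeled rate subtracted and 3.87% for the 15 well-covered members, and 50.03% of reads held a conversion. The median level was 6.80 on the deposited CPM scale and 69.6 with reads summed over intervals, some of which are nested. The catalytic difference was between -1.11 and -0.44 percentage points without 1 library and -15.6 as a share of reads. DESeq2 called 18 genes (13 higher and 5 lower). Leaving out an unlabeled library leaves 1, which is then assumed to vary like the labeled ones. The log2 fold changes ran from -1.92 to 0.44 for Psmb10, from -0.13 to 0.64 for Psmb5, from -0.0052 to 0.15 for Psmb7, from -0.79 to 0.10 for Psmb8 and from -1.15 to 0.84 for Psme1 when a library was left out. The cause was not tested.

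With the replicate number as a block, edgeR called 1146 genes (528 higher and 618 lower) and 6 members: Psmb2, Psmb4, Psmc1 and Psmc5 higher, Psme1 and Psme4 lower. Of the pathway genes, 1 was called lower. Psmb7 was then -0.025 on the log2 scale. Deviations from the group means correlated between labeled and unlabeled replicate 1 (r = 0.784 over 9807 genes). With 2 unlabeled libraries their deviations mirror each other, so that the values for unlabeled replicate 2 (r = 0.638 with labeled replicate 2 and 0.482 with labeled replicate 3) are not separate evidence of pairing. The labels do not say that a number marks a shared preparation, and only 2 numbers are shared.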
